A study of Arabidopsis halleri with 12 samples.

Results

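The tubulin alpha and beta genes of Arabidopsis halleri roots were examined through the probe sets annotated to exactly 1 such gene. Members were taken by symbol (TUA or TUB followed by a digit), with the probe set of highest mean where a gene had several. This gave 7 genes, TUA1 and TUA6 for alpha chains and TUB1, TUB5, TUB6, TUB7 and TUB9 for beta chains, of 13350 genes with a single-gene probe set and 22746 probe sets in all. Each of the 7 had 1 single-gene probe set, so no choice between probe sets was made. Arabidopsis thaliana, whose gene names the annotation uses, has 15 alpha and beta tubulin genes on the list used here. A further probe set, annotated to TUA3 and TUA5 together, is described beside the members and not counted among them. The remaining 6 genes have no named probe set in the annotation and were not analysed here.

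Microtubules are hollow polymers of alpha and beta tubulin dimers. In growing root cells the cortical microtubules guide the enzymes that lay down cellulose and so the direction of cell expansion, and in dividing cells they form the preprophase band, the spindle and the phragmoplast. Plants carry several genes for each chain, whose proteins are very similar and whose transcripts differ in where they accumulate. In A. thaliana, TUB1 transcript is known mainly from roots, TUA1 and TUB9 are known from pollen, and fusions of TUA6 and TUB6 to fluorescent proteins are in wide use to image microtubules. TUB5 and TUB7 encode further beta chains.

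The arrays carried biotin-labelled RNA from roots of 5-week-old A. halleri, a zinc hyperaccumulating relative of A. thaliana. Wild type (WT, Langelsheim) was compared with AhNAS2-RNAi-1-2, a line in which a nicotianamine synthase gene for metal chelation was suppressed by RNA interference (RNAi). Both lines were clones grown in hydroponic Hoagland solution, either as control or with 10 µM Zn2+ added, which gave 4 groups of 3 arrays. Each array held RNA from the pooled roots of 3 plants, and the study describes 3 independent experiments. Only 1 RNAi line was profiled, so suppression and other differences of that line cannot be told apart. The labels do not tie replicate numbers to experiments, so the spread behind each p-value is that between pools and may be partly technical. The knockdown was not checked here. A search of the annotation table for symbols holding NAS and a digit matched 0 of 14016 annotated probe sets. Only that form of symbol was searched. None of the 11 listed root markers had a named probe set, so the tissue was not checked by them. Of 10 listed photosynthesis genes only RCA was measured. Its 4 group means lay between 4.62 and 4.81, under the median log2 signal of any array, which was 5.34 to 5.38.

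All values are log2 signal as deposited, so a difference of 1 is a doubling. The 7 tubulin probe sets read between 6.55 and 10.1 on the 12 arrays, above every array median. Signal also depends on how well an A. halleri transcript matches probes designed for A. thaliana, so the levels of different probe sets are not ranked against each other. In pooled root RNA, fewer cells of a type and less transcript per cell cannot be told apart.

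Among the alpha chains, TUA1 read 8.20, 8.13 and 8.05 in WT control and 8.12, 7.81 and 8.23 in WT with zinc. In the RNAi line it read 8.29, 8.34 and 8.01 in control and 8.20, 8.13 and 7.92 with zinc. The 4 groups overlapped throughout, with group means from 8.05 to 8.22. TUA6 read 7.21, 7.70 and 7.03 in WT control and 7.18, 6.71 and 7.23 in WT with zinc. In the RNAi line it read 7.22, 7.23 and 6.81 in control and 7.15, 7.24 and 6.91 with zinc. WT control replicate 2 stood highest and WT zinc replicate 2 lowest, and the groups again overlapped. TUA6 varied more within groups than most probe sets, with a pooled within-group SD of 0.27 that exceeded those of 90.5% of all probe sets. The probe set shared by TUA3 and TUA5 stayed between 10.66 and 10.98 on all 12 arrays, with a within-group SD of 0.11 and overlapping groups.

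TUB1, the beta chain known mainly from roots in A. thaliana, read 7.18, 7.46 and 7.07 in WT control and 7.12, 6.93 and 7.03 in WT with zinc. In the RNAi line it read 7.02, 6.62 and 6.79 in control and 6.78, 6.81 and 6.55 with zinc. Within each medium all 3 RNAi arrays lay below all 3 WT arrays. Across the media the lines overlapped only through RNAi control replicate 1, at 7.02, which lay above WT zinc replicate 2, at 6.93.

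TUB5 read 9.66, 10.1 and 9.46 in WT control and 10.0, 9.64 and 9.55 in WT with zinc. In RNAi it read 9.85, 9.95 and 9.49 in control and 10.0, 9.87 and 9.73 with zinc. Replicates spread as widely as groups, with a within-group SD of 0.25. TUB7 read 9.63, 10.1 and 9.55 in WT control and 9.89, 9.72 and 9.63 in WT with zinc. The RNAi arrays read 9.66, 9.60 and 9.42 in control and 9.60, 9.62 and 9.57 with zinc. With zinc the lines did not overlap for TUB7, though the gap was under 0.01, between 9.62 in RNAi and 9.63 in WT.

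For TUB6 the WT control arrays read 8.95, 9.08 and 8.93 and the WT zinc arrays 8.95, 9.09 and 9.10. The RNAi arrays read 9.09, 9.10 and 9.13 in control and 9.18, 9.50 and 8.99 with zinc. In control medium all 3 RNAi arrays lay above all 3 WT arrays, and with zinc RNAi replicate 2 was the highest of the 6 and RNAi replicate 3 among the lowest. TUB9 read 8.56, 8.85 and 8.63 in WT control and 8.55, 8.54 and 8.46 in WT with zinc. In RNAi it read 8.54, 8.55 and 8.69 in control and 8.52, 8.39 and 8.47 with zinc. It had the narrowest spread of the 7 genes, with a within-group SD of 0.096, and in each line its zinc arrays lay below its control arrays. The gaps were small, between 8.55 with zinc and 8.56 in control in WT, and between 8.52 and 8.54 in RNAi.

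**Figure D1:**
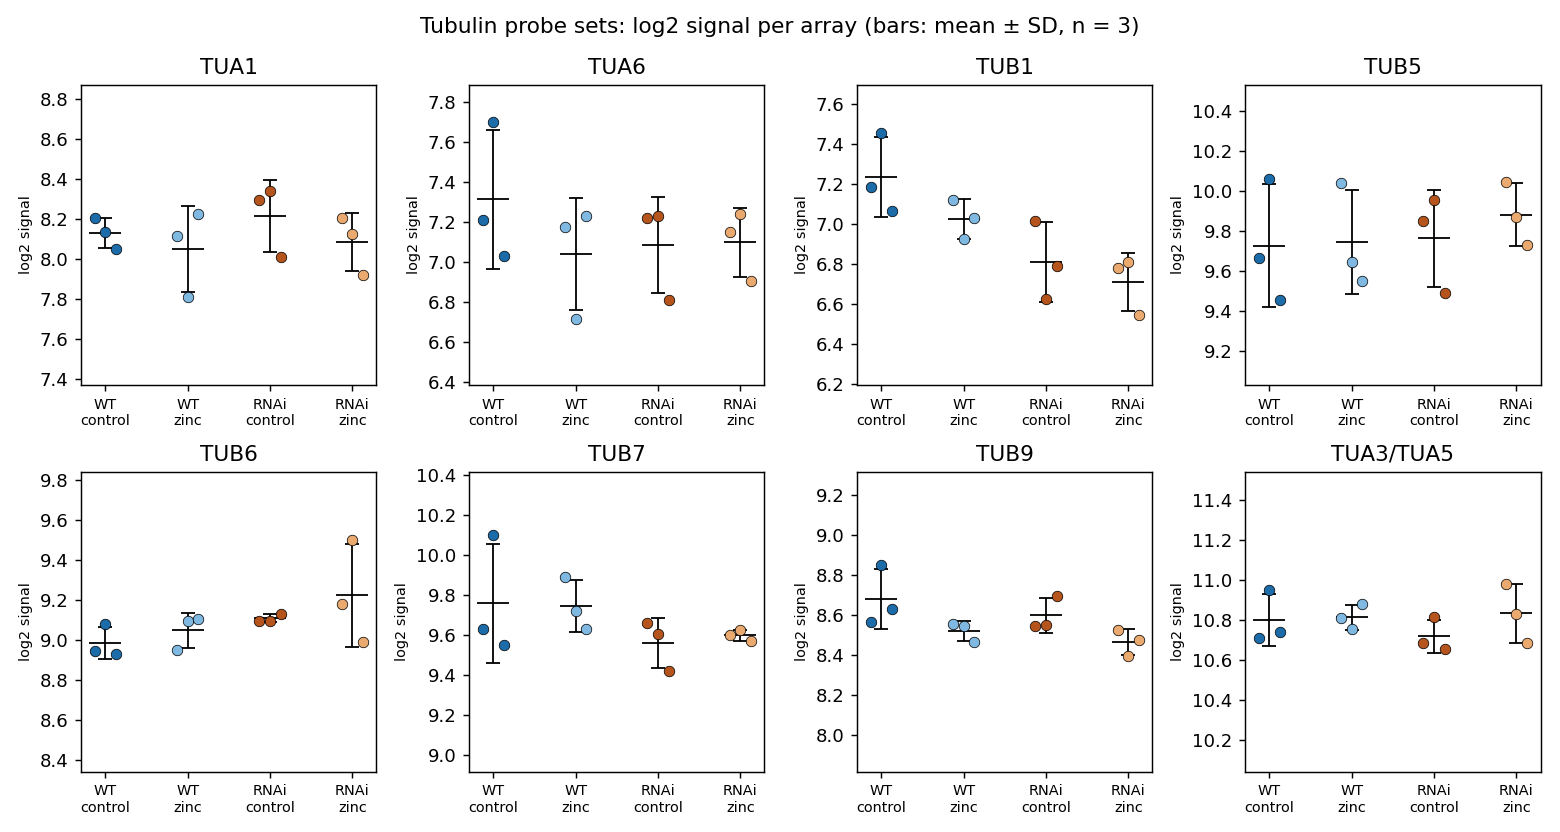
Log2 signal (vertical axis, the same span of 1.5 log2 units in each panel) of the 7 tubulin genes and of the probe set shared by TUA3 and TUA5, by group on the horizontal axis. Points are arrays and bars are the mean ± SD (n = 3); TUB1 is the gene whose RNAi arrays lie below its WT arrays in both media.

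The line comparison asked which tubulin transcripts differed between the RNAi line and WT. TUB1 had the largest difference of the 7 genes, 1.29-fold lower in RNAi over both media, and it did not pass the threshold. Its mean was 7.13 ± 0.18 in WT and 6.76 ± 0.16 in RNAi (SD, n = 6), with a log2 fold change of -0.37 (SE 0.089, 95% interval -0.56 to -0.17, limma adjusted p = 0.0799). The unadjusted p of 0.00143 placed it at rank 406 of 22746 probe sets, while the 239 probe sets that passed had unadjusted p-values of at most 0.000522. In control medium the difference was -0.42 (SE 0.13, adjusted p = 0.321), from 7.24 ± 0.20 in WT to 6.81 ± 0.20 in RNAi (SD, n = 3). With zinc it was -0.31 (SE 0.13, adjusted p = 0.570), from 7.03 ± 0.10 to 6.71 ± 0.14. TUB1 lay below WT without overlap in each medium, as did 1.68% of all probe sets.

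The other 6 tubulin genes differed less between the lines over both media. TUB6 was 1.11-fold higher in RNAi (log2 fold change 0.15, SE 0.080, 95% interval -0.027 to 0.32, adjusted p = 0.469) and TUB7 1.13-fold lower (-0.17, SE 0.093, interval -0.38 to 0.030, adjusted p = 0.466). Both values depended on single arrays: TUB6 was at 0.079 without RNAi zinc replicate 2, and TUB7 at -0.089 without WT control replicate 2. For TUB5 the value was 0.087 (interval -0.19 to 0.36), for TUB9 -0.070 (-0.21 to 0.066), for TUA1 0.059 (-0.13 to 0.25) and for TUA6 -0.084 (-0.38 to 0.21). All 7 intervals lay within 0.57 of 0, and that of TUB1 reached farthest from it. The shared probe set of TUA3 and TUA5 was at -0.032 (-0.18 to 0.12). A value whose interval spans 0 is not shown to be equal in the lines. Each interval covers 1 gene and is not adjusted for the number of genes.

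The counts over the 7 genes stand beside the shares of all probe sets. In control medium 0 of 7 passed limma's threshold, where 0.022% of all probe sets passed, and 1 of 7 had an unadjusted p under 0.05 (TUB1), where 8.76% did. With zinc 0 of 7 passed, against 0.0528%, and 1 of 7 had an unadjusted p under 0.05 (TUB1 again), against 7.72%. Over both media 0 of 7 passed, against 1.05%, and 1 of 7 had an unadjusted p under 0.05, against 13.3%. The arrays of the lines did not overlap for TUB1 and TUB6 in control medium, 2 of 7 where 13.9% of all probe sets did not overlap, and for TUB1 and TUB7 with zinc, 2 of 7 against 12.7%. The median log2 fold change of the 7 over both media was -0.070, with 3 higher and 4 lower, beside a median of -0.0014 over all probe sets.

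**Figure D2:**
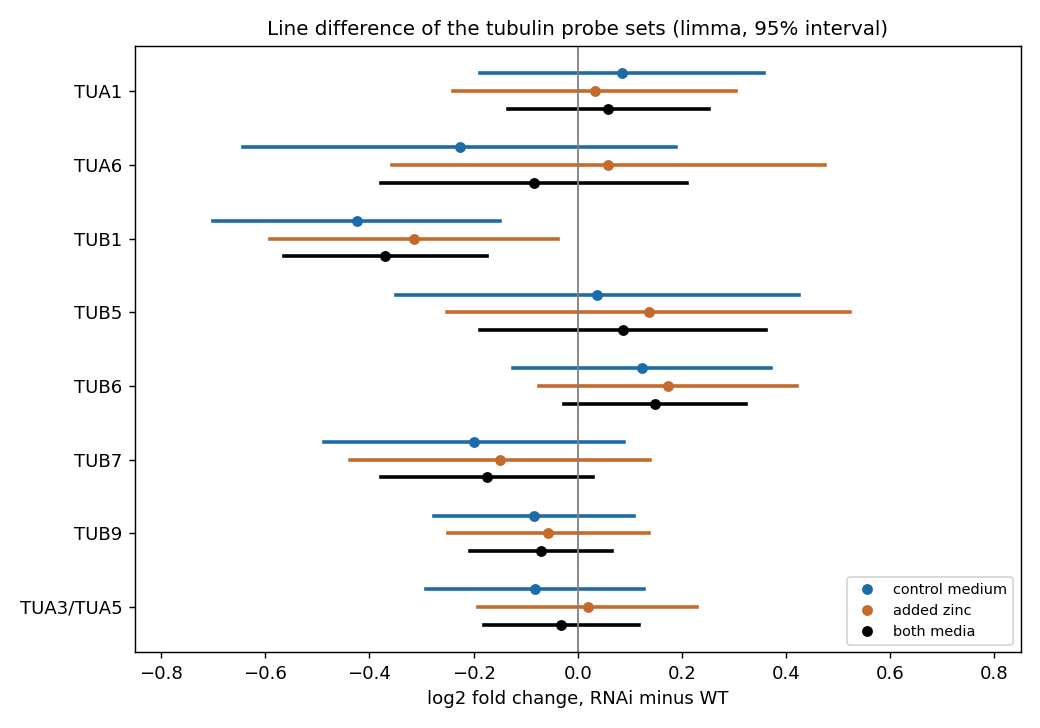
Log2 fold change of RNAi minus WT (horizontal axis) with its 95% limma interval for each tubulin probe set (vertical axis), with colours for control medium, for zinc and for the media together. Only the 3 intervals of TUB1 lie wholly below 0, and none of the differences passed the adjusted threshold.

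Differences between tubulin genes on the same array were also taken, as the log2 ratio of 2 probe sets, since a change in such a ratio does not depend on a shift that the array's probe sets share. These ratios were looked at after the single values had been seen, so they are described without a test. Of the 21 pairs, 1 separated all 6 WT arrays from all 6 RNAi arrays, which is 4.76% of the pairs beside 1.97% of all pairs of genes with a single-gene probe set. In that pair the log2 ratio of TUA1 over TUB1 ran from 0.68 to 1.20 in WT, with a median of 0.99. In RNAi it ran from 1.22 to 1.72, with a median of 1.35. The lines were 0.021 apart at their nearest arrays, WT zinc replicate 3 and RNAi control replicate 3.

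The ratio of TUB5 over TUB7 ran from -0.095 to 0.15 in WT and from 0.071 to 0.44 in RNAi, and only WT zinc replicate 1 reached into the RNAi range. Its mean was -0.018 ± 0.096 in WT and 0.24 ± 0.14 in RNAi (SD, n = 6), a difference of 0.24 in control medium and 0.28 with zinc. TUB1 over TUB6 had the largest shift of the 21, at -0.52 over both media, with -0.55 in control medium and -0.49 with zinc. It ran from -2.17 to -1.62 in WT and from -2.69 to -2.08 in RNAi, and only WT zinc replicate 2 reached into the RNAi range. No pair separated the control from the zinc arrays over both lines, against 0.47% of all gene pairs.

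The zinc comparison asked how tubulin transcripts in roots of each line stood after growth with the added metal. TUB9 had the smallest p over both lines, 1.11-fold lower with zinc (log2 fold change -0.15, SE 0.062, 95% interval -0.28 to -0.011, limma adjusted p = 0.625). Its mean was 8.64 ± 0.12 in control and 8.49 ± 0.061 in zinc (SD, n = 6), with -0.16 (SE 0.088, adjusted p = 0.972) in WT and -0.13 (SE 0.088, adjusted p = 0.9996) in RNAi. Without WT control replicate 2 it was at -0.076 in WT and -0.10 over both lines. TUB1 was at -0.16 (interval -0.35 to 0.040), TUA6 at -0.13 (-0.42 to 0.16), TUA1 at -0.10 (-0.30 to 0.088) and TUB7 at 0.013 (-0.19 to 0.22). TUB6 was at 0.090 (-0.085 to 0.26) and TUB5 at 0.069 (-0.20 to 0.34). The 7 intervals over both lines all lay within 0.43 of 0 in this fit, which takes no account of the spike-in level described next.

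None of the 7 passed in either line or over both lines, and neither did any other probe set: 0% of all passed in each of these comparisons. Unadjusted p-values under 0.05 numbered 0 of 7 in WT, against 5.04% of all probe sets, 0 of 7 in RNAi, against 4.52%, and 1 of 7 over both lines (TUB9), against 7.62%. The control and zinc arrays did not overlap for TUB9 alone, 1 of 7 in WT beside 10.3% of all probe sets and 1 of 7 in RNAi beside 10% of all. Hybridization spike-ins, which carry no plant RNA, were at 10.1 to 10.4 on the control arrays and 9.83 to 10.1 on the zinc arrays (mean log2 signal of 18 probe sets). This level moved with the medium, and its part in the zinc values was not tested beyond a fit with it as a covariate, in which TUB9 over both lines was at -0.28 (SE 0.13, adjusted p = 0.834). In that fit the SEs of the 7 genes ran from 0.13 for TUB9 to 0.30 for TUA6, so its intervals are wider than those given above.

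**Figure D3:**
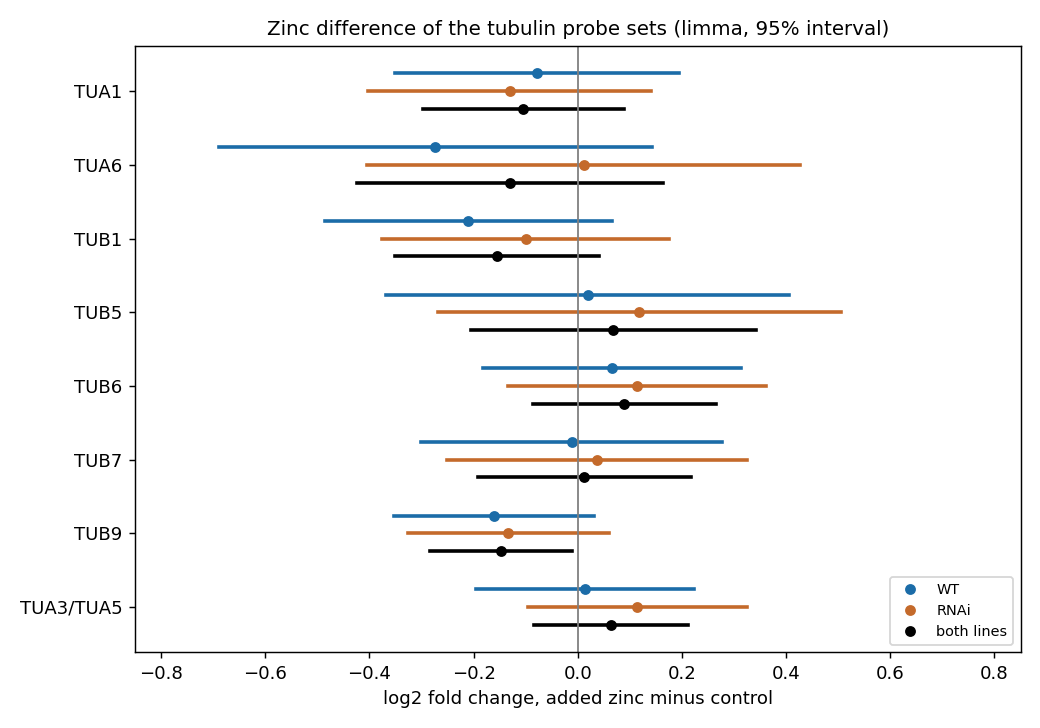
Log2 fold change of added zinc minus control (horizontal axis) with its 95% limma interval for each tubulin probe set (vertical axis), with colours for WT, for RNAi and for the lines together. The interval of TUB9 over both lines lies just below 0 and all others span 0; no difference passed the adjusted threshold.

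The interaction of line and zinc asked whether the zinc difference itself differed between the lines. The largest value was that of TUA6, at 0.29 (SE 0.27, 95% interval -0.30 to 0.87), from a zinc difference of -0.27 in WT and 0.012 in RNAi. Without WT control replicate 2 the interaction of TUA6 was 0.091 and its zinc difference in WT -0.079. TUB1 was at 0.11 (SE 0.18) and the other 5 genes lay between -0.053 and 0.098. With limma 0 of 7 passed, as did 0% of all probe sets, and 0 of 7 had an unadjusted p under 0.05, against 2.18% of all. The smallest adjusted p among the 7 was 0.9999. The line difference of TUB1 is therefore not shown to depend on zinc.

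The replicates of a group differed from each other in a way that most tubulin genes shared. On WT control replicate 2 all 7 genes lay above the group mean, and 6 of 7 were the highest of the 3 arrays, where 43.4% of all probe sets were. The median deviation of all probe sets on that array was also above 0, at 0.026. The excess was largest for TUA6, at 0.39, TUB7, at 0.34, and TUB5, at 0.33 (log2 difference from the group mean), and was 0.0031 for TUA1. On WT control replicate 3, 6 of 7 were the lowest, against 35.0% of all probe sets. On RNAi zinc replicate 3, 6 of 7 were also the lowest, against 35.3%. TUB6 had its largest excess, 0.28, on RNAi zinc replicate 2.

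**Figure D4:**
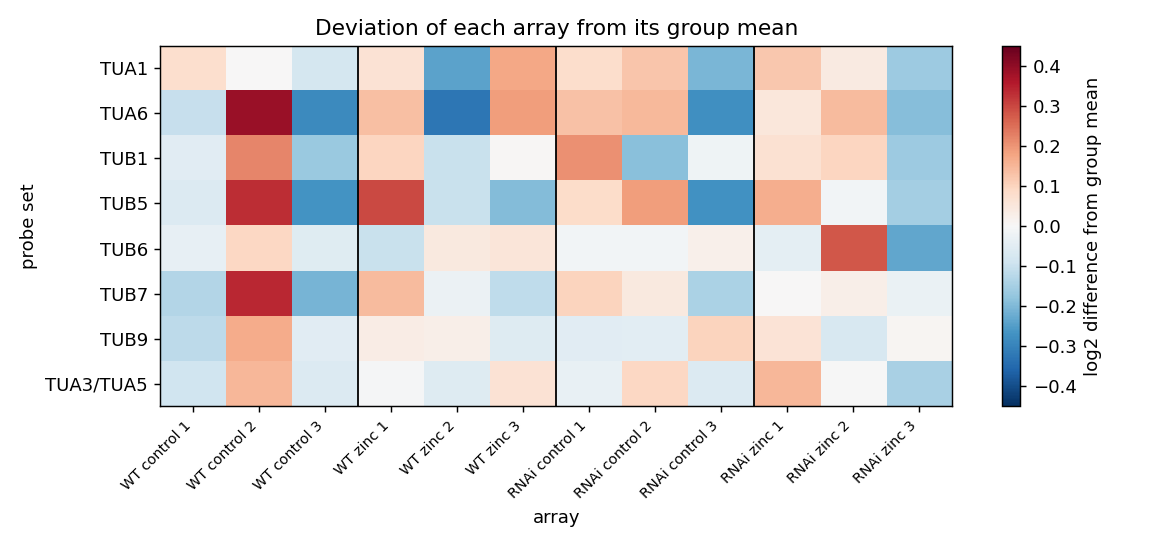
Difference of each array from its group mean in log2 signal (colour), with arrays along the horizontal axis in their 4 groups and tubulin probe sets along the vertical axis. WT control replicate 2 is above the group mean for all 7 genes, and the median deviation of all probe sets there is 0.026. RNAi zinc replicate 3 is the lowest of its group for 6 of 7.

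Deviations from the group means were correlated between the tubulin genes over the 12 arrays, as a description of these arrays, which share 4 groups. TUB5 and TUB7 were closest, with r = 0.88, and r = 0.87 on the 11 arrays without WT control replicate 2. TUA6 followed TUA1 (r = 0.76), TUB5 (r = 0.75), TUB7 (r = 0.74) and TUB1 (r = 0.68). TUA1 and TUB9 had the lowest value, r = -0.37, and r = -0.49 without WT control replicate 2, and TUB6 and TUB9 were at r = -0.032. Of the 21 pairs 8 had an r above 0.5, which is 38.1%, beside 11.1% of all pairs of genes. On the 11 arrays 7 pairs had one, and the share of all pairs of genes was not taken there. The group means behind the values on 11 arrays still included WT control replicate 2, so its influence was not fully removed. Tubulin transcripts are similar in sequence, and whether their probes share signal was not tested.

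The genes whose values over the 12 arrays were most like the mean tubulin profile were taken by Pearson's r with the mean of the 7 scaled profiles. They were AT4G25870 (r = 0.967, Spearman's rho 0.846), AT3G56230 (r = 0.957, rho 0.951), WLIM2a (r = 0.955, rho 0.951), AT3G16370 (r = 0.939, rho 0.958) and AT5G03640 (r = 0.926, rho 0.881). WLIM2a belongs to the plant LIM-domain proteins that bind and bundle actin filaments. They were chosen as the 5 highest of 13343 candidates, of which 25 had an r above 0.9, so the r values are a description. On 10 arrays, without WT control replicate 2 and RNAi zinc replicate 3, which lay farthest from the median of the profile, r was 0.91, 0.91, 0.96, 0.92 and 0.84 in the same order. Their line differences over both media lay between -0.11 and -0.028, with adjusted p-values of at least 0.790 by limma. The means of AT4G25870 and AT5G03640, 4.55 and 4.50, lay below every array median. The mean profile did not stand for all 7 tubulin genes alike. The r of a gene with the mean of the others was -0.081 for TUB6, 0.25 for TUB9 and 0.33 for TUA1. It was 0.50 for TUB1, 0.55 for TUB5, 0.68 for TUB7 and 0.89 for TUA6.

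**Figure D5:**
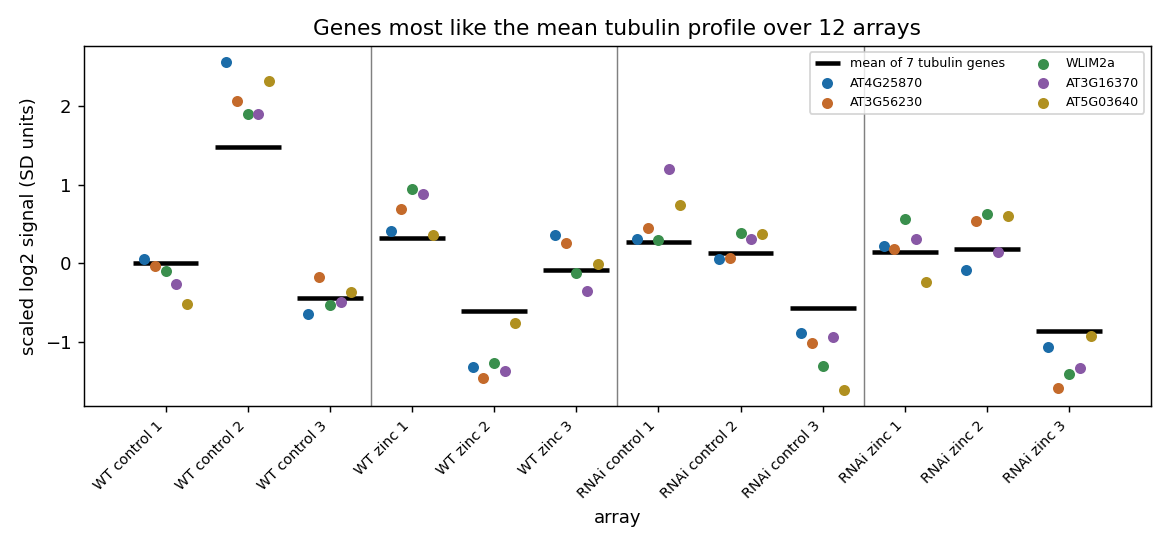
Scaled log2 signal in SD units (vertical axis) on each array (horizontal axis) for the mean of the 7 tubulin genes (black bars) and the 5 genes of highest r with it (points). The bar and all 5 points stand highest on WT control replicate 2. The bar and points all lie below 0 on replicate 3 of WT control and of each RNAi group, and on WT zinc replicate 2.

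Other genes of the microtubule system were covered thinly by the annotation, and none passed the threshold in any of the 7 comparisons. Tubulin folding cofactors and prefoldins, which fold and join the chains, had 2 of 12 listed genes measured. POR, a cofactor, was at -0.029 (SE 0.062) and PFI, another, at -0.044 (SE 0.081) between the lines over both media. Of 10 listed nucleation genes 1 was measured, AT5G17410, at 0.13 (SE 0.083). Of 37 listed microtubule-associated genes 4 were measured, all higher in RNAi over both media with a median of 0.056, beside a median of -0.0014 and 49.5% higher for all probe sets. In control medium 2 of the 4 were higher and 2 lower, with a median of -0.0095, and with zinc all 4 were higher, with a median of 0.12.

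ATMAP65-6, of the family of proteins that cross-link microtubules, had the largest value of these 4, at 0.21 (SE 0.068, adjusted p = 0.184). It was at 0.38 in control medium (SE 0.096, adjusted p = 0.212), from 6.66 ± 0.093 in WT to 7.04 ± 0.088 in RNAi (SD, n = 3), and at 0.043 (SE 0.096) with zinc. SPR1, which acts at growing microtubule ends and in directional cell expansion, was at 0.049 (SE 0.071), AT3G23090 at 0.063 (SE 0.076) and TON1B, of the preprophase band, at 0.035 (SE 0.087). The mean signal of TON1B was 4.56, below the array medians.

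Families taken by symbol were chosen with the annotation already in view. Of 15 IQD genes, a family of calmodulin-binding proteins of which several bind microtubules, 8 were higher and 7 lower in RNAi over both media, with a median of 0.027. IQD26 was lowest at -0.48 (SE 0.12, adjusted p = 0.0841), with 4.83 ± 0.30 in WT control and 4.35 ± 0.091 in RNAi control, below the array medians. Of 14 TRM genes, which share motifs with partners of the TON1 proteins, 5 were higher and 9 lower, with a median of -0.017. KINESIN-12B and KINESIN-13A, microtubule motor proteins, were at -0.12 (SE 0.067) and -0.064 (SE 0.067). KINESIN-12B had a mean signal of 4.15, also below the array medians. With zinc over both lines the medians were 0.022 for IQD and 0.063 for TRM genes, beside -0.0041 for all probe sets.

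Neighbouring systems were read for comparison. Of 8 listed actin genes 2 were measured, ACT11 at -0.50 (SE 0.14, adjusted p = 0.136) and ACT12 at -0.077 (SE 0.084) between the lines over both media. ACT12 was dim, with a mean signal of 3.70, below the array medians. In control medium ACT11 read 6.12 ± 0.28 in WT and 5.57 ± 0.085 in RNAi (SD, n = 3), and with zinc 5.98 ± 0.31 and 5.53 ± 0.38. Of 10 NET genes, whose proteins bind actin, 4 were higher and 6 lower, with a median of -0.017. COB, which is needed for oriented cellulose deposition, was the only 1 of 9 listed genes of primary wall cellulose with a named probe set, at -0.14 (SE 0.098). AUR1, a mitotic Aurora kinase and the only 1 of 10 listed genes of dividing cells with one, was at -0.083 (SE 0.15) between the lines and -0.085 (SE 0.15) between the media. Of 10 listed genes of xylem secondary walls none was measured. Of 9 listed root hair genes 3 were measured, EXPA7, EXPA18 and AT1G30870. They lay at -0.48 to -0.46 with zinc over both lines (limma adjusted p of at least 0.583) and within 0.09 of 0 between the lines. Their SEs ran from 0.18 to 0.25 in both comparisons, so the lines are not shown to be equal. The zinc values take no account of the spike-in level. The part of cell division or root hair number in the tubulin values was not tested.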

How the data were processed

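Per the submitters' processing notes, the authors made the deposited log2 values with RMA and the affy package. For versions, background step and probe definition the sources used here give nothing. The deposited log2 values were used without further scaling. Of the probe sets, 64 controls were left out and 22746 tested. Genes were named from the annotation table that pairs probe sets with genes.

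A group-means model over all 12 arrays was fitted with limma 3.58.1 in R 4.3.3 (8 residual and 3.79 prior degrees of freedom), after a test on simulated data. There were 7 two-sided comparisons, with p-values adjusted by Benjamini-Hochberg over all probe sets and a threshold of 0.05. Between replicates of a group, up to 0.0615% of probe sets held equal values. Precision is limited by the 3 arrays per group, and the median SE of the 7 genes was 0.13 within a medium or line and 0.089 over both.

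Same-numbered arrays were checked for pairing. Deviations from group means correlated above 0.1 in all 3 pairs for 1 of 6 pairs of groups, WT and RNAi in control medium (0.16, 0.29 and 0.48). Between WT control and WT zinc all 3 were negative (-0.31, -0.45 and -0.12). Any pairing of the control medium arrays is thus read from the data, not the labels, and is not established.

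Members and gene lists were chosen with earlier results of these data known. All members were named, with list genes past the threshold or else up to 4 of highest signal per list, the 5 genes most like the tubulin mean, and extremes of families chosen after their values were seen. Alternatives covered the replicate block, the arrays fitted, quantile normalization, a filter on dim probe sets, the variance model, the spike-in level and single arrays left out. Figures were drawn with matplotlib 3.10.9.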

Additional observations from a re-analysis of the deposited data

How the results depend on the processing

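The count of tubulin genes past the threshold was 0 of 7 in each of the 7 comparisons under every alternative run, the replicate block included. With the replicate block over all 12 arrays TUB1 between the lines over both media had an adjusted p of 0.0961, and in control medium one of 0.337. With the block on the control medium arrays alone, an alternative chosen after seeing the data, that was 0.317. Over all alternatives TUB1 over both media ran from -0.42 to -0.31 with adjusted p from 0.0679 to 0.194, and the highest p came without a single array. The filter on dim probe sets kept all 7 genes, and no gene had another single-gene probe set to try.

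Leaving out single arrays changed the sign of 21 of the 49 tubulin values, moved a further 23 by over 1.5 times and moved 5 by less. Those 5 were the 3 line differences of TUB1, the line difference of TUB6 in control medium and the zinc difference of TUB9 over both lines. Of 868 alternative values 42 changed sign in fits without a single array and 7 in other settings, none of them for a value with an unadjusted p under 0.05. Between the lines, leaving out single arrays moved TUB5 from -0.097 to 0.20 and TUB9 from -0.14 to 0.00011 in control medium, TUA1 from -0.087 to 0.12 and TUA6 from -0.10 to 0.15 with zinc, and TUA1 from -0.0011 to 0.11 and TUA6 from -0.16 to 0.013 over both media. For zinc in WT the ranges were -0.17 to 0.042 for TUA1, -0.13 to 0.19 for TUB5 and -0.12 to 0.16 for TUB7. For zinc in RNAi they were -0.13 to 0.11 for TUA6, -0.19 to 0.0034 for TUB1, -0.019 to 0.21 for TUB5, -0.025 to 0.23 for TUB6 and -0.033 to 0.088 for TUB7. Over both lines they were -0.0053 to 0.15 for TUB5 and -0.039 to 0.098 for TUB7. For the interaction they were -0.17 to 0.035 for TUA1, -0.068 to 0.25 for TUB5, -0.090 to 0.17 for TUB6, -0.12 to 0.15 for TUB7 and -0.057 to 0.087 for TUB9. Quantile normalization turned zinc in WT for TUB7 to 0.025 and zinc in RNAi for TUA6 to -0.00542. With the spike-in level as a covariate the zinc difference of TUB5 was -0.073 in WT, -0.0077 in RNAi and -0.0402 over the lines together, TUA6 at -0.13 in RNAi and the interaction of TUB9 at -0.012. The cause of these sign changes was not tested.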
